A study of Chlamydomonas reinhardtii with 12 samples.

Results

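The response to 6 h of darkness under air was measured in the green alga Chlamydomonas reinhardtii, strain CC-124, by poly(A) RNA sequencing of cells sampled before and after it. The standard cells (0 h) grew in TAP medium, which contains acetate, in continuous light of 20 µmol photons per m2 and s on a shaker. The dark aerated cells (6 h) had then stood for 6 h in darkness in open beakers. Each group held 2 libraries, described as a biological duplicate, and the authors deposited 1 pooled FPKM value (fragments scaled to the length of the transcript and to all mapped fragments) per group. No value per library, and so no replicate error, could be computed. The series also holds wild type cells kept dark and anoxic in sealed flasks, and the same 3 treatments of amiCYG12, a CC-124 transformant in which an artificial microRNA was directed against the cyclase gene CYG12. Since every dark sample was taken 6 h after the standard one, and in another vessel, darkness, time and vessel cannot be told apart.

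A locus entered with its most abundant transcript if that transcript reached 1 FPKM in standard or dark aerated wild type cells. Of 17741 loci, 9643 did so and 8098 did not. A locus under the limit in 1 of these groups entered through the other, where it is higher. The locus just inside this limit was Cre09.g389986, at 0.687 and 1.00 FPKM, and the one just outside was Cre01.g010800, at 1.00 (0.999623) and 0.901 FPKM. Changes are given as log2 of the ratio of FPKM + 1, dark over standard, which understates the change of weakly expressed genes; for selected genes this value follows the levels in parentheses. "Rose" and "fell" are used only of loci that the authors' deposited table calls significant, at a q-value under 0.05. A call is named borderline where it is lost when the deposited p-values are adjusted over these loci alone. CYG12 (Cre07.g320750, chromosome 7, 1168552 to 1174826) itself rose in the wild type from 0.132 to 3.23 FPKM (1.90). In amiCYG12 it stood at 0.158 FPKM in standard and 0.353 FPKM in dark aerated cells, and the authors' deposited table gives a significant difference to the wild type, downwards, for the dark but not for standard cells.

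C. reinhardtii is a single-celled alga with a large chloroplast. It can grow on acetate as well as by photosynthesis, makes chlorophyll in the dark as well as in the light, and carries hydrogenases that are best known from anoxic cells. In light-dark cycles most of its transcripts follow the time of day: genes for photosynthesis and pigment synthesis peak in the light, and those for division near dusk.

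More transcripts were lower than higher after the dark period. Of 9637 loci tested, 1123 (11.7%) were called, 421 (4.37%) higher and 702 (7.28%) lower in the dark. The median over all 9643 loci was -0.08 on the log2 scale, with the 5th and 95th percentiles at -0.94 and 0.66, and it was 0.97 for the rises and -1.02 for the falls. The smallest change called was 0.89 in the authors' deposited log2 values. At a mean of 10 FPKM or more, the authors' deposited p-values, read through a normal distribution, correspond to a standard error of 0.35 on the log2 scale. This is the median of 2469 loci, with 5th and 95th percentiles at 0.34 and 0.37. Loci with the smallest and the largest p-values were left out. The value describes the authors' test and is not a measured spread between replicates. In RNA from whole cultures, fewer cells with a transcript and less of it per cell cannot be told apart.

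Falls made up a larger share of abundant than of scarce transcripts, and rises a smaller one. At a mean of 2 FPKM or less, 6.84% of 2632 loci rose and 2.89% fell. Between 2 and 5 FPKM 117 of 2744 loci rose and 117 fell, and between 5 and 10 FPKM 52 of 1591 rose and 97 fell. Between 30 and 100 FPKM, 2.87% of 662 loci rose and 20.8% fell, and above 1000 FPKM 1 of 126 rose and 28 fell. That 1 was Cre10.g418450 on chromosome 10, 106740 to 108465, without a symbol or description, which rose from 713 to 1991 FPKM. A chloroplast omega-6 fatty acid desaturase (Cre13.g590500) rose from 592 to 1162 FPKM, and the membrane transporter gene CST1, a borderline call, rose from 159 to 303 FPKM. These were picked after their values were seen, as the most abundant transcripts to rise. Only 89 of the 421 loci that rose (21.1%) carry a gene symbol, against 338 of the 702 that fell (48.1%) and 27.0% of all 9643.

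**Figure D1:**
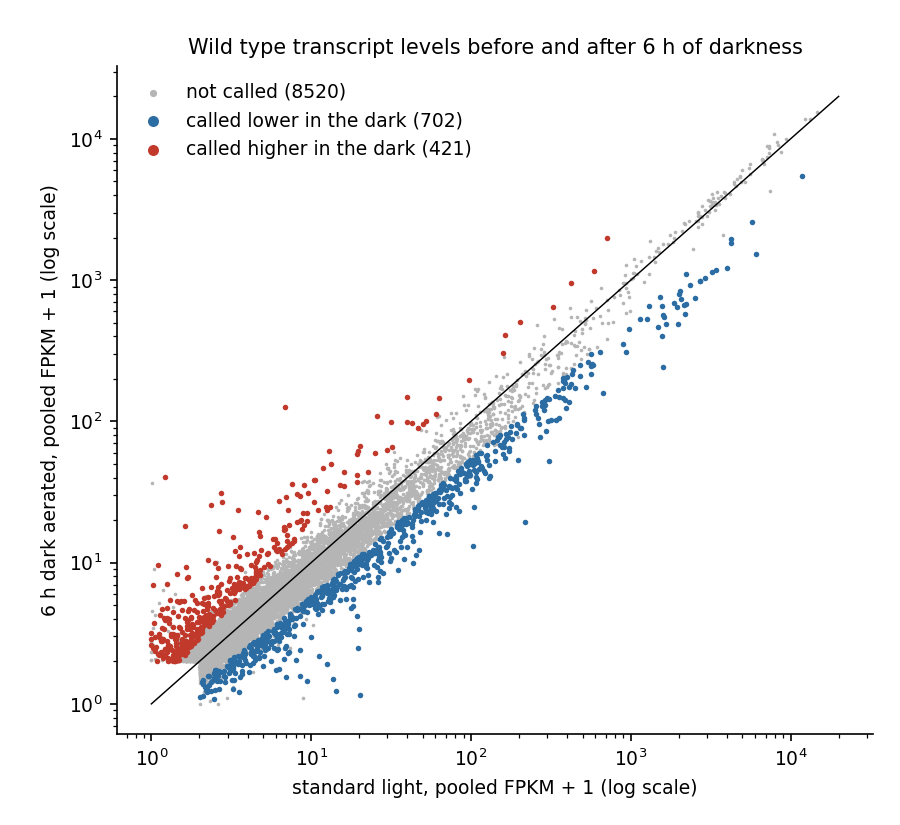
Pooled FPKM + 1 of 9643 loci in standard (horizontal) and dark aerated (vertical) wild type cells, both on log scales, 1 point per locus, with the line of equal values. The 702 loci called lower (blue) include abundant ones such as LHCBM1, while most of the 421 called higher (red) start low. The most abundant transcript, RPS21, was not called.

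Gene groups were read against these shares: 4.37% of all tested loci rose and 7.28% fell. The light-harvesting antenna fell almost as a whole. Low medians were also found for tetrapyrrole synthesis, protein folding in the endoplasmic reticulum, the photosystems, plastid fatty acid synthesis and plastid ribosomal proteins. Cytosolic ribosomal proteins, the proteasome and the mitochondrial respiratory chain held no called member; at an unadjusted p-value under 0.05 in the authors' test they held 1 of 69, 0 of 27 and 3 of 89. The count for plastid ribosomal proteins is the one of these that hangs most on the adjustment, as given beside it.

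**Figure D2:**
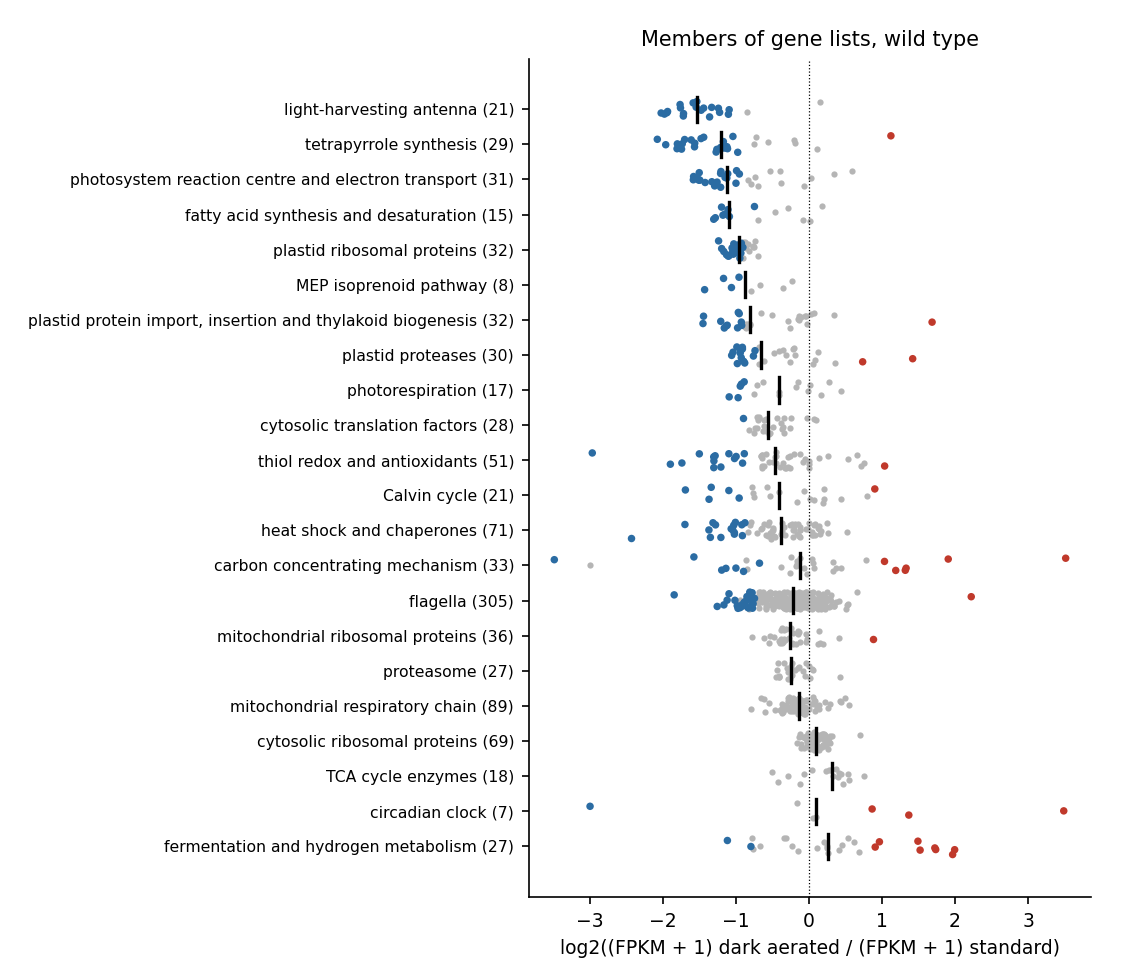
Change of every measured member of 22 gene groups in the wild type, as log2 of the ratio of FPKM + 1, dark aerated over standard; blue, called lower; red, called higher; grey, not called; bar, median; in parentheses, the number measured. Medians run from -1.54 for the antenna to 0.32 for the enzymes of the TCA cycle.

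The antenna proteins bind the chlorophyll that feeds light energy to the photosystems. All 21 antenna genes were measured, and 19 fell, with a median of -1.54. Their summed FPKM went from 8.15% to 3.32% of all FPKM. That total was itself lower in the dark, at 672089 FPKM in standard and 601731 FPKM in dark aerated cells. All 9 LHCA genes, which encode the photosystem I antenna, fell, LHCA4 the furthest, from 1972 to 484 FPKM (-2.02), and LHCA6 from 2187 to 571 FPKM. Of the 9 LHCBM genes of the major photosystem II antenna 8 fell, among them LHCBM7 from 6038 to 1531 FPKM (-1.98) and LHCBM4 from 1557 to 404 FPKM. LHCBM1 was the most abundant antenna transcript and fell from 11713 to 5452 FPKM (-1.10). The minor antennae LHCB4 and LHCB5 fell from 3432 to 1184 and from 2220.2 to 673 FPKM (-1.72). The 2 genes not called were LHCBM2, at 3756 and 2080.0 FPKM, and LHCB7, at 5.35 and 6.06 FPKM. Near-identical LHCBM copies, such as the neighbours LHCBM8 and LHCBM9, may have shared reads.

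Both photosystems followed. The list of photosystem and electron transport genes encoded in the nucleus had 31 of 33 members measured: 20 fell, none rose, and the median was -1.12. All 10 photosystem I subunits fell, with PSAN at 930.5 and 309.8 FPKM and PSAG at 2072 and 728 FPKM in standard and dark cells. Of 10 measured genes grouped under photosystem II 9 fell. The group includes PsbP-like lumenal proteins, and its 1 gene without a call is one of them. Of 4 measured PsbP-like genes 3 fell. PSBO, which holds the oxygen-evolving site in place, fell from 3241 to 1143 FPKM (-1.50), and PSBY2 fell from 521 to 174 FPKM. The electron carriers between and behind the photosystems moved less: of 7 genes for cytochrome b6f and the mobile carriers only PETO fell, from 424 to 183 FPKM. Plastocyanin (PCY1) stood at 7415 and 4259.9 FPKM without a call (q = 0.105 in the authors' deposited table). Ferredoxin (PETF) stood at 3402 and 3459.8 FPKM. None of the 3 nuclear genes of the plastid ATP synthase was called, at the q-value or at an unadjusted p-value under 0.05, and their median was 0.25.

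Photoprotection genes were few and mixed in level. Of 10 measured members 3 fell: the early light-induced LHL3 from 411 to 136 FPKM, ELI2 (borderline) from 145 to 73.2 FPKM, and LHCSR1, which dissipates excess light energy, from 1.90 to 0.440 FPKM.

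Tetrapyrrole synthesis builds chlorophyll and heme from glutamate in the plastid. All 29 listed genes were measured: 22 fell, 1 rose, and the median was -1.21. The first steps, from glutamyl-tRNA to uroporphyrinogen, held 5 falls among 6 genes. HEM1, the glutamyl-tRNA reductase that commits glutamate to the pathway, fell from 97.1 to 48.9 FPKM as a borderline call. GSA1, which makes 5-aminolevulinic acid, fell from 296 to 84.1 FPKM (-1.80), and PBGD1, which links porphobilinogens into a chain, fell from 269 to 76.1 FPKM (-1.81). UROS1, which closes the ring, stood at 83.6 and 50.2 FPKM without a call.

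All 6 genes from uroporphyrinogen to protoporphyrin fell, with a median of -1.72. The decarboxylase gene UROD2 fell from 104 to 23.9 FPKM (-2.08), the largest change of the list, and protoporphyrinogen oxidase (PPX1) fell from 61.8 to 15.1 FPKM (-1.96). Of 11 genes of the magnesium branch, which leads to chlorophyll, 10 fell. Magnesium chelatase subunits CHLD and CHLI1 fell from 107 to 35.5 and from 314 to 102 FPKM (-1.61). The methyltransferase CHLM fell from 141 to 51.2 FPKM, the light-dependent protochlorophyllide reductase POR1 from 203 to 89.4 FPKM (-1.17) and chlorophyll synthetase CHLG from 78.7 to 33.5 FPKM. CAO1, which makes chlorophyll b, stood at 84.2 and 49.7 FPKM without a call. FLU, a negative regulator of glutamyl-tRNA reductase in plants and this alga, fell from 61.4 to 27.8 FPKM (borderline).

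In the heme branch no gene fell. Ferrochelatase (HEM2) stood at 15.5 and 13.4 FPKM without a call. HMOX2, a heme oxygenase, was the list's only rise, from 1.10 to 3.56 FPKM (1.12). PAO1, the pheophorbide a oxygenase of chlorophyll breakdown, is outside the list and rose from 1.77 to 3.71 FPKM as a borderline call. CPX1 and CRD1 act in the oxygen-dependent steps and are known targets of copper and oxygen signalling. They fell under air, CPX1 from 172 to 61.1 and CRD1 (borderline) from 173 to 83.7 FPKM, and stood at 996 and 722 FPKM in dark anoxic wild type cells. The isoenzyme CTH1 fell from 339 to 101 FPKM and stood at 7.86 FPKM in the anoxic cells. The anoxic and the aerated cells are compared with the same standard libraries.

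**Figure D3:**
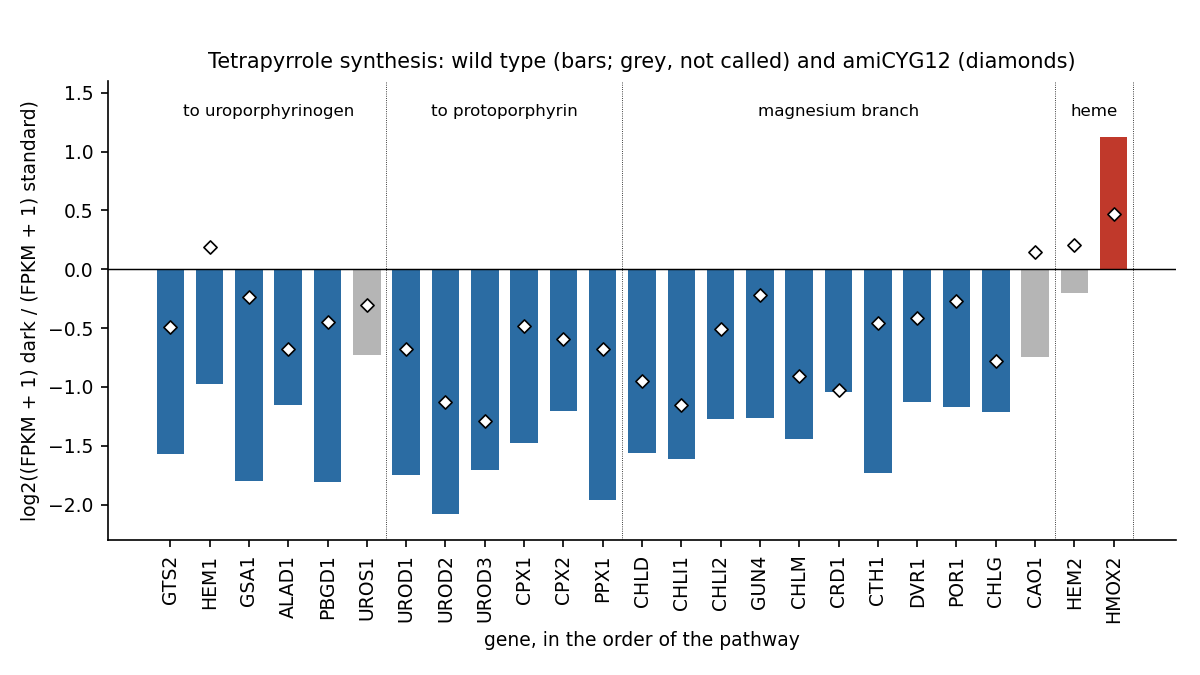
Change of 25 tetrapyrrole genes in pathway order, as log2 of the ratio of FPKM + 1, dark aerated over standard; bars, wild type (blue, called lower; red, called higher; grey, not called); diamonds, amiCYG12. UROD2 has the lowest bar, at -2.08, and HMOX2 the only red one, at 1.12.

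Isoprenoid precursors of the chlorophyll tail and of carotenoids come from the MEP pathway. Of 8 measured genes 4 fell, with a median of -0.87: CMK1 from 20.1 to 6.85 FPKM (-1.43), CMS1 from 21.2 to 8.85 FPKM, HDS1 from 102 to 48.3 FPKM and, as a borderline call, DXR1 from 59.6 to 30.2 FPKM. DXS1, the entry enzyme, stood at 155 and 89.5 FPKM without a call. Carotenoid synthesis held 1 fall among 5 genes, the ketolase gene BKT1, from 4.33 to 1.81 FPKM. Phytoene synthase (PSY1) stood at 33.9 and 27.4 FPKM.

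The machinery that makes and places plastid proteins was lower in several of its parts. Of 32 plastid ribosomal protein genes, all measured, 20 fell, and the members lay within a narrow band from -1.24 (PRPS10, from 411 to 174 FPKM) to -0.70. Their sum went from 1.85% to 1.06% of all FPKM. This band straddles the authors' threshold: PRPS15 was called at q = 0.0499 and PRPL33, with a change of -0.91 against -0.90, was not at q = 0.0508. Adjusted over the loci of this comparison alone, 9 of the 20 remained called. The 3 plastid-specific ribosomal proteins fell too, PSRP1 from 122 to 41.9 FPKM (-1.51) and, as borderline calls, PSRP3 and PSRP4.

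Ribosomal proteins outside the plastid held few calls. Of 69 cytosolic ribosomal protein genes none was called, and the median was 0.10. Their sum went from 298696 to 321194 FPKM, or from 44.4% to 53.4% of all FPKM, a total that was lower in the dark. RPS21, the most abundant transcript in both groups, stood at 14652 and 15476 FPKM. Of 36 mitochondrial ribosomal protein genes 1 was called, MRPL11, which rose from 2.59 to 5.58 FPKM as a borderline call, and the median was -0.26. Cytosolic translation factors had a median of -0.56 with 1 borderline fall among 28 genes, EIF3K, from 94.0 to 49.6 FPKM.

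Insertion of proteins into the thylakoid depends on ALB3 and the chloroplast signal recognition particle. ALB3 fell from 26.4 to 9.02 FPKM (-1.45), SRP43 from 12.7 to 5.15 FPKM, the SRP54 gene Cre11.g479750 from 36.4 to 16.1 FPKM and the receptor FTSY (borderline) from 16.5 to 8.25 FPKM. The other SRP54 locus, Cre13.g569200, which the table describes as a subunit of the signal recognition particle, stood at 22.9 and 18.5 FPKM without a call. Of 9 measured translocon genes of the plastid envelope 3 fell, among them TOC75 from 63.7 to 32.1 FPKM and TIC110 from 55.8 to 28.3 FPKM. None of these 3 calls held when the p-values were adjusted over this comparison alone. Of 30 measured plastid protease genes 13 fell and 2 rose; 5 falls remained under that adjustment. CLPR2, a core subunit of the Clp protease, fell from 79.8 to 38.3 FPKM, and CLPD1, a regulatory chaperone of the same protease family, rose from 3.40 to 10.8 FPKM (1.42).

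Carbon fixation by the Calvin cycle showed a split between single enzymes. Of 21 measured genes 5 fell and 1 rose, with a median of -0.41. Phosphoribulokinase (PRK1), which makes the CO2 acceptor, fell from 889 to 351 FPKM (-1.34), phosphoglycerate kinase (PGK1) from 447 to 173 FPKM and ribose phosphate isomerase (RPI1) from 306 to 143 FPKM. SBP1, FBA3 and GAP3, of the same cycle, stood at 1401 and 1464, 1892 and 2179.8 and 1416 and 1344 FPKM without a call. The Rubisco small subunit gene RBCS1 fell from 2157 to 667 FPKM (-1.69), while its neighbour RBCS2 stood at 7904 and 10747 FPKM without a call (q = 0.435). These 2 genes are near-identical copies, so the division of reads between them is uncertain. One FBP1 locus (Cre12.g510650, fructose-1,6-bisphosphatase) fell from 399 to 205 FPKM and another locus with that symbol but no description (Cre07.g338451) rose from 59.7 to 112 FPKM, both as borderline calls.

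In photorespiration, which recycles the product of the oxygenase reaction of Rubisco, 5 of 17 measured genes fell, and 1 remained under the adjustment within the comparison. The latter was hydroxypyruvate reductase (HPR1), which fell from 50.9 to 23.3 FPKM (-1.09). Glycine cleavage subunits GCSP and GCSH fell as borderline calls, from 62.5 to 31.4 and from 106 to 56.7 FPKM. Glycolate dehydrogenase (GYD1) stood at 37.7 and 37.4 FPKM.

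The carbon concentrating mechanism, which supplies Rubisco with CO2 at low ambient CO2, moved in both directions: of 33 measured genes 6 rose and 7 fell. Among 8 carbonic anhydrases 3 fell and 3 rose. CAH1 (Cre04.g223100, chromosome 4, 2662125 to 2666375), the periplasmic enzyme induced at low CO2, fell from 216 to 18.3 FPKM (-3.49), the largest fall of any gene with a symbol. The mitochondrial CAH5 fell from 12.5 to 3.53 FPKM (-1.58), and CAH3, of the thylakoid lumen, fell from 87.2 to 43.1 FPKM (borderline). CAH8 rose from 41.8 to 96.5 FPKM (1.19), CAH7 from 7.88 to 21.3 FPKM (1.33) and CAH2 from 8.06 to 17.6 FPKM. CAH2 lies next to CAH1 and resembles it, so reads may have been divided between them.

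Low-CO2-inducible genes shared no direction. LCIB, a protein found around the pyrenoid, fell from 189.6 to 82.3 FPKM (-1.19), as did LCI9 and, as a borderline call, LCI21 from 6.20 to 2.87 FPKM. LCI30 rose from 163 to 407 FPKM (1.32). The largest rise of any gene with a symbol was at LCI34 (Cre03.g191300, chromosome 3, 6048076 to 6050818), from 1.71 to 30.0 FPKM (3.51), beside a second locus of that symbol (Cre03.g191250), which rose from 12.2 to 48.6 FPKM (1.91). Reads of these neighbours may not be separable. LCI1, a plasma membrane protein, stood at 7.86 and 0.105 FPKM and missed the threshold (q = 0.0513). CCM1, the regulator of CO2-responsive genes, stood at 5.12 and 9.49 FPKM, and the pyrenoid protein gene LCI5 at 651 and 883 FPKM, both without a call.

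Fatty acids are made in the plastid from acetyl-CoA. Of 15 listed and measured genes 8 fell, none rose, and the median was -1.09. The list includes SQD1, a sulfolipid gene that fell, whose own change is that median. The biotin carboxyl carriers of acetyl-CoA carboxylase, BCC1 and BCC2, fell from 573 to 253 and from 261 to 105 FPKM (-1.30). The condensing enzymes KAS1 and KAS2 fell from 110.1 to 50.5 and from 46.4 to 20.3 FPKM (-1.15), and the sulfolipid gene SQD1 from 69.0 to 31.9 FPKM. The acyl-ACP desaturase FAB2 stood at 98.0 and 39.6 FPKM without a call (q = 0.205). The omega-6 desaturase locus Cre13.g590500, which rose as given above, has no symbol and stands outside the list.

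The pyruvate dehydrogenase complex, which makes acetyl-CoA, exists in the plastid and in mitochondria, and its genes are given by compartment. All 4 plastid subunit genes fell: DLA2 from 213 to 79.3 FPKM (-1.42), PDH2 from 128 to 48.5 FPKM, DLD2 from 115 to 47.5 FPKM and PDC2 from 75.0 to 32.5 FPKM (-1.18). Of the 4 mitochondrial ones none was called, at the q-value or at an unadjusted p-value under 0.05 in the authors' test. PDC1 stood at 39.1 and 29.5, PDH1 at 113 and 91.3, DLA1 at 30.9 and 24.2 and DLD1 at 34.8 and 28.0 FPKM. The difference between the compartments was not tested.

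Central metabolism outside the plastid lipid pathway changed at single genes. None of 18 TCA cycle enzyme genes was called, 1 had an unadjusted p-value under 0.05 in the authors' test, and their median was 0.32. The glyoxylate cycle enzymes that use acetate stood at 1592 and 1792 FPKM for isocitrate lyase (ICL1) and 370.5 and 448 FPKM for malate synthase (MAS1), and the acetyl-CoA synthetase gene ACS3 at 607 and 634 FPKM. A putative acetate transporter gene, GFY4, rose from 424 to 952 FPKM (1.17). Of 29 measured genes of glycolysis and gluconeogenesis 1 rose and 3 fell, with a median of -0.27. The rise was that of glyceraldehyde-3-phosphate dehydrogenase GAP1, from 62.3 to 145 FPKM (1.21). The falls were PGK1, given above, PGM18, which has no description, from 23.7 to 8.64 FPKM (-1.35), and GPM1 (Cre06.g278210), described as a phosphoglucomutase, from 73.1 to 28.4 FPKM (-1.34). Outside that list, malic enzyme MME3 rose from 2.99 to 10.4 FPKM (1.52) and glutamate dehydrogenase GDH1 from 1.62 to 8.17 FPKM (1.81). Aspartate aminotransferase AST1 rose from 96.4 to 196 FPKM as a borderline call. In the oxidative pentose phosphate pathway, which supplies NADPH without light, glucose-6-phosphate dehydrogenase GLD1 rose from 1.48 to 4.80 FPKM and transaldolase TAL1 (borderline) from 326 to 643 FPKM. TAL2 (Cre14.g630847), which has no description, fell from 62.1 to 25.2 FPKM (-1.27).

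Starch genes were mostly uncalled: of 14 measured genes for synthesis 2 rose and 1 fell, and of 16 for breakdown 1 rose. Soluble starch synthase SSS2 fell from 69.1 to 21.2 FPKM (-1.66). AGP2 rose from 0.780 to 3.07 FPKM. The rise in the breakdown list was AMA3, a gene with an alpha-amylase symbol, from 1.51 to 8.95 FPKM (1.99). MLDP1, the major lipid droplet protein, rose from 2.56 to 10.1 FPKM (1.64) and was the only call among 9 measured genes for neutral lipids and beta-oxidation.

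Genes for hydrogen metabolism rose under air. Of 27 measured genes for fermentation and hydrogen metabolism 8 rose and 2 fell. Both hydrogenases rose, HYDA1 (Cre03.g199800, chromosome 3, 8216108 to 8220752) from 19.2 to 66.2 FPKM (1.74) and HYDA2 (Cre09.g396600, chromosome 9, 1740957 to 1745328) from 6.15 to 22.6 FPKM (1.72). So did the maturation factors HYDG, from 8.07 to 34.4 FPKM (1.97), and HYDEF, from 0.989 to 2.88 FPKM, which are neighbours on chromosome 6. In the dark anoxic cells these 4 stood at 238, 41.3, 65.7 and 9.91 FPKM, all above the aerated values. The files hold no oxygen measurement for the open beakers, and the part of oxygen in these rises was not tested.

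Hybrid-cluster proteins, iron-sulfur proteins linked to anoxic metabolism, rose at 3 of 4 genes. Of these, HCP4 and HCP1 were under 1 FPKM in standard cells and entered through the dark cells. HCP4 rose from 0.170 to 3.66 FPKM (1.99), HCP3 from 3.18 to 6.84 FPKM and HCP1 (borderline) from 0.0576 to 1.97 FPKM, while HCP2 stood at 5.06 and 6.27 FPKM; reads may be shared among these related copies. The remaining rise in the list was that of the malic enzyme gene MME3, given above. Of the fermentation enzymes, 3 picked after their values were seen had no call: pyruvate-formate lyase PFL1 stood at 105 and 153 FPKM, the alcohol/acetaldehyde dehydrogenase ADH1 at 25.0 and 29.8 FPKM and acetate kinase ACK1 at 3.18 and 4.57 FPKM. Another alcohol dehydrogenase gene, ADH5, fell from 3.45 to 1.05 FPKM (-1.12), and so did, as a borderline call, the malic enzyme gene MME2, from 7.77 to 4.05 FPKM.

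**Figure D4:**
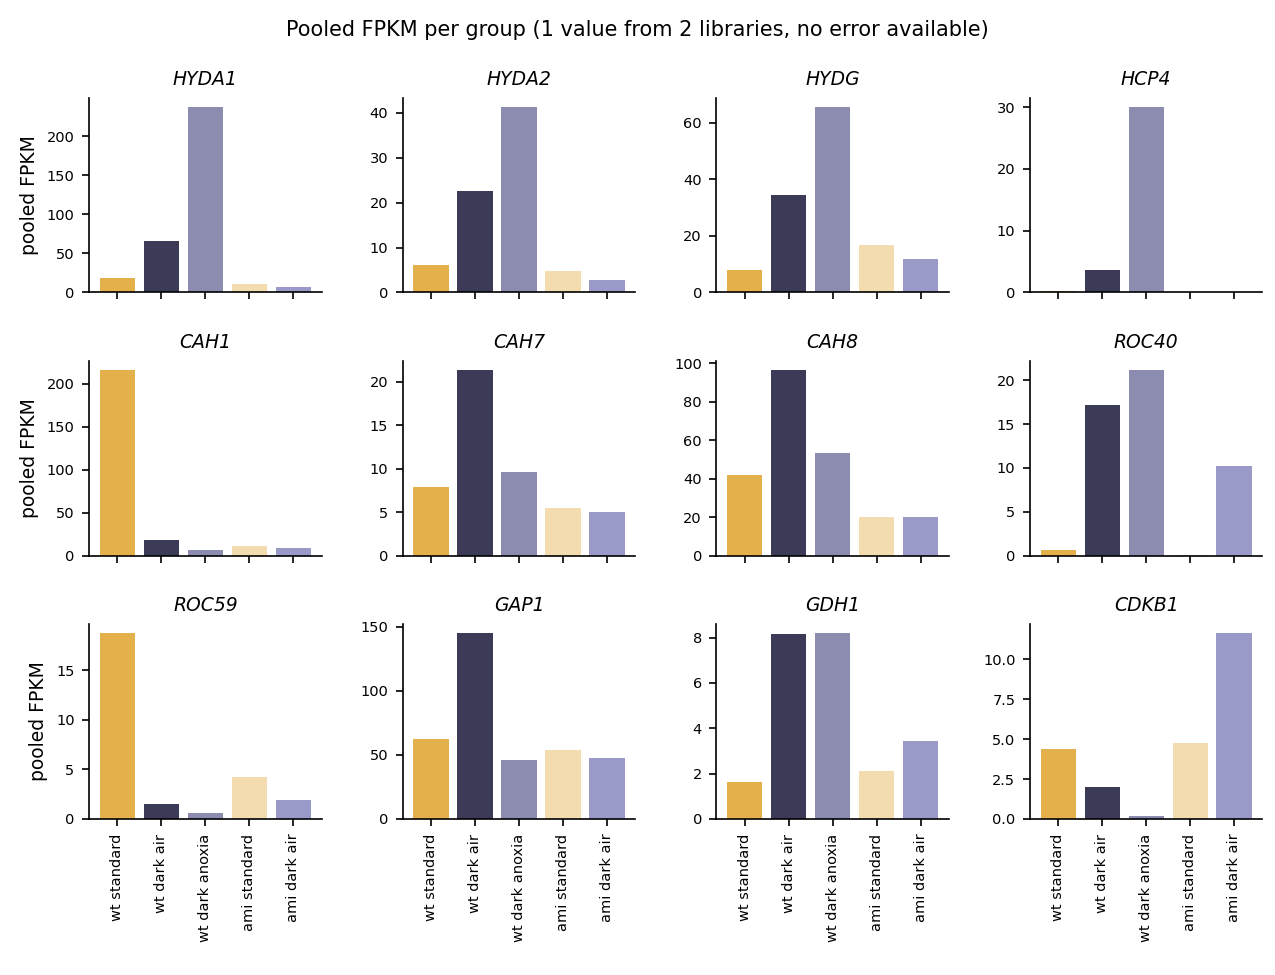
Pooled FPKM (vertical, linear, from 0, own scale per panel) of 12 genes in 5 groups: wild type (wt) in standard, dark aerated and dark anoxic cells, and amiCYG12 (ami) in standard and dark aerated cells; each bar is 1 pooled value, so no error bar can be drawn. The hydrogenase genes rise in wild type darkness and are highest in anoxia, while CAH7, CAH8 and GAP1 are highest in aerated wild type darkness.

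Protein folding in the endoplasmic reticulum was lower at 7 of 8 listed genes, with a median of -1.26. The lumenal chaperones BIP1 and HSP90B fell from 66.1 to 25.0 and from 75.3 to 28.9 FPKM. They lie beside BIP2 on chromosome 2, which fell from 7.52 to 0.581 FPKM (-2.43), and BIP1 and BIP2 may share reads. The disulfide isomerase PDI2 fell from 26.2 to 9.92 FPKM and the calcium-binding chaperone CRT2 from 213 to 101 FPKM. In the plastid 7 of 17 measured chaperone genes fell: the chaperonin subunit CPN60A from 131 to 39.7 FPKM (-1.70) and HSP70B from 104 to 50.0 FPKM among them. Of these 7 falls 4 remain when the p-values are adjusted within the comparison. The change of CPN60A is -0.98 when the FPKM of its transcripts are summed. The cytosolic HSP70A and HSP90A stood at 169 and 120.1 and 147 and 83.2 FPKM without a call.

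Antioxidant and thiol genes fell at 14 of 51 measured members. The chloroplast peroxiredoxin PRX1 fell from 1602 to 565 FPKM (-1.50) and thioredoxin f2 (TRX3), which activates Calvin cycle enzymes in the light, from 92.0 to 36.7 FPKM. Iron superoxide dismutase FSD1 fell from 479.6 to 207 FPKM and the manganese enzyme MSD3 from 101 to 12.1 FPKM (-2.97). Ascorbate peroxidase APX1 and glutathione peroxidase GPX5 stood at 44.4 and 27.8 and 75.1 and 72.4 FPKM without a call.

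Some of the largest falls lay at single vitamin, methionine and iron genes. Of 23 measured genes for thiamine, biotin and other cofactors 5 fell and none rose. Of 31 for iron and copper homeostasis 8 fell and 2 rose. Of 52 for amino acid synthesis, the list with METE, 4 fell and 2 rose. The latter is near the shares of all tested loci, 7.28% and 4.37%. Adjusted over this comparison alone, 2, 5 and 2 of these falls remained. THI4, which makes the thiazole part of thiamine, fell from 1592 to 242 FPKM (-2.72), and THI8 (borderline), which makes the pyrimidine part, from 45.9 to 23.4 FPKM. METE, the methionine synthase that works without vitamin B12, fell from 308 to 51.8 FPKM (-2.55). The iron-assimilating proteins FEA1 and FEA2, secreted under iron limitation, fell from 671 to 157 and from 42.5 to 8.90 FPKM. They are adjacent related genes on chromosome 12, and TEF22 beside them fell from 21.5 to 9.36 FPKM. FOX2, described as a multicopper ferroxidase, rose from 0.747 to 2.51 FPKM. BCS1, an assembly factor of the mitochondrial cytochrome bc1 complex, fell from 10.2 to 1.18 FPKM (-2.35), while none of 89 measured respiratory chain genes was called.

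Clock genes moved in both directions. Of 5 ROC genes, named for mutants with disturbed chloroplast rhythms, 3 rose and 1 fell. ROC40 rose from 0.615 to 17.1 FPKM (3.49), ROC75 from 1.73 to 6.03 FPKM and ROC15 (borderline) from 6.03 to 11.8 FPKM. ROC59 fell from 18.7 to 1.47 FPKM (-3.00), the second largest fall of a gene with a symbol. None of 9 measured genes for photoreceptors and light signalling was called, and 1 had an unadjusted p-value under 0.05 in the authors' test; COP3 stood at 73.7 and 114 FPKM, COP2 at 550.0 and 324 FPKM and the cryptochrome CPH1 at 6.93 and 10.3 FPKM.

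Among 48 measured genes of cyclic nucleotide signalling 3 rose and none fell, beside 4.37% and 7.28% of all loci tested. The rises were CYG12, the cyclase CYG36 from 2.27 to 5.08 FPKM and the phosphodiesterase PDE7 from 0.366 to 1.01 FPKM. CYG12 and PDE7 passed the limit of 1 FPKM only in the dark cells, so their entry and their rise are not independent. The truncated hemoglobins are heme proteins able to bind oxygen or nitric oxide; of 8 measured, THB7 rose from 5.77 to 16.9 FPKM (1.40). THB8 had the largest change of all loci, at 0.0107 and 35.5 FPKM, but was not called (q = 0.320 in the authors' deposited table); it was at 31.2 FPKM in the dark anoxic cells.

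Of 34 measured cell wall genes 4 rose and 2 fell, beside 4.37% and 7.28% of all loci tested. Adjusted over this comparison alone, 3 rises and 1 fall remained. The hydroxyproline-rich glycoprotein HRP3 rose from 11.9 to 60.6 FPKM (2.26) and the pherophorin PHC8 from 25.0 to 108 FPKM (2.07). HRP2 fell from 8.96 to 2.00 FPKM and PHC4 (borderline) from 3.67 to 1.83 FPKM. Of 305 measured flagellar genes 25 fell, beside 7.28% of all loci tested, and 1, FAP15, rose, beside 4.37%: from 1.25 to 9.50 FPKM (2.22). The falls included beta tubulin TUB2, from 253 to 112 FPKM, and FAP269, from 82.8 to 22.3 FPKM (-1.85). In the cell cycle list 2 of 29 measured genes fell, a share near the 7.28% of all loci tested, and none rose. These 2 were the kinase CDKB1 (borderline), from 4.40 to 2.03 FPKM, and the cyclin CYCA1, from 2.76 to 1.18 FPKM.

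The largest called rise and the largest called fall belonged to loci without a symbol. Cre08.g368850 (chromosome 8, 2107426 to 2109912) rose from 0.216 to 39.4 FPKM, a change of 5.05 on the log2 scale, and Cre09.g395213 (chromosome 9, 4368090 to 4369269) from 5.82 to 126 FPKM (4.21). Cre07.g334150, Cre02.g102050 and Cre02.g103300 followed, at 1.34 and 24.6, 1.77 and 25.8 and 0.102 and 8.61 FPKM. Cre07.g321800 fell from 19.4 to 0.159 FPKM, the largest fall of all at -4.13. Its neighbour Cre07.g321750 fell from 13.3 to 0.241 FPKM and Cre07.g321850, on the other side, from 15.2 to 7.73 FPKM; the 3 span 1278084 to 1286551 on chromosome 7. Cre03.g151650 fell from 12.7 to 0.490 FPKM, Cre16.g661750 from 11.6 to 0.913 FPKM and Cre16.g661850 from 8.40 to 0.446 FPKM.

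Some loci that are adjacent in the version 5.5 assembly had the same call. Such pairs numbered 51 with both lower and 21 with both higher, where 7.28% of all tested loci fell and 4.37% rose. The count expected of unrelated neighbours was not computed, so no pattern is read from these pairs. The pairs given here were picked after their values were seen. Beside the pairs named above, the magnesium chelatase gene CHLI2 and its neighbour CGL73 fell together, as did PSAG and CYN28, KAS1 and Cre11.g467724, and CHLM and the protease gene DEG1C. Among the rises AGP2 stood beside Cre16.g683400 and TEH6. Whether transcripts overlap at these pairs was not tested.

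amiCYG12 went through the same darkness, in libraries that share no sample with the wild type comparison. There darkness gave 1257 calls (13.2% of the loci tested), 282 upwards (2.96%) and 975 downwards (10.2%). Over 9068 loci that reached 1 FPKM in both strains the changes had a Pearson correlation of 0.389 and a Spearman correlation of 0.343; the points are loci, which are not independent replicates. Among these 9068 loci, 296 rose and 679 fell in the wild type, while 125 of its rises and 23 of its falls were at loci under 1 FPKM in both amiCYG12 groups. Loci higher in both strains numbered 65, which is 22.0% of the 296 wild type rises and 24.4% of the 266 amiCYG12 rises. Loci lower in both numbered 240, or 35.3% of the 679 wild type falls and 25.1% of the 958 amiCYG12 falls. The amiCYG12 median was 0.27 for the 296 and -0.60 for the 679, against -0.10 for all 9068.

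**Figure D5:**
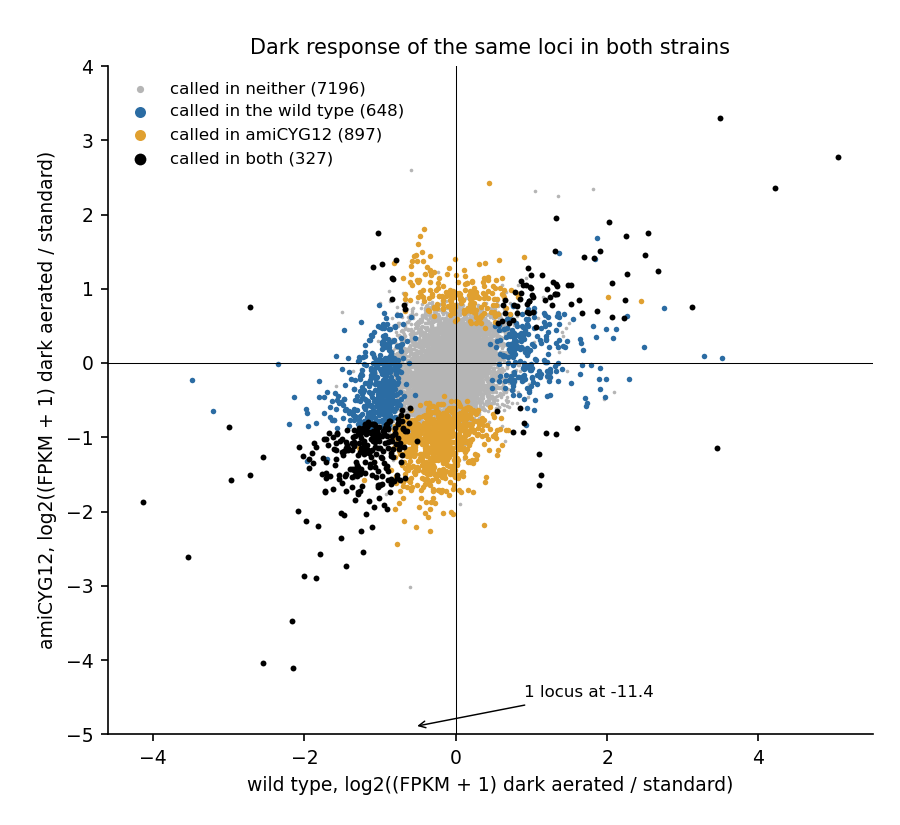
Change of 9068 loci in darkness under air, wild type (horizontal) against amiCYG12 (vertical), both as log2 of the ratio of FPKM + 1, dark over standard; colours mark the strain in which a locus was called. Of these loci 327 were called in both strains, in either direction, 648 in the wild type and 897 in amiCYG12 only, and 1 locus, at -11.4 in amiCYG12, lies beyond the vertical range.

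The antenna fell in both strains, at 19 of 21 genes in the wild type and 18 in amiCYG12, with medians of -1.54 and -1.28. In the endoplasmic reticulum group 7 of 8 genes fell in the wild type and 6 in amiCYG12. ROC40 rose in both, from 0.615 to 17.1 FPKM in the wild type and from 0.136 to 10.2 FPKM in amiCYG12. METE fell in both, in amiCYG12 from 160.0 to 8.81 FPKM. In the groups that follow the counts of the strains lie further apart, but the difference between the strains' dark responses was not tested, and each strain's values are given side by side.

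Tetrapyrrole genes fell at 22 of 29 in the wild type and 5 in amiCYG12, where the median was -0.49. In standard cells, the authors' deposited table called 18 of the 29 below the wild type level in amiCYG12 and none above it. Of all tested loci, 10.1% were called there in either direction. That comparison uses the same wild type standard libraries as the wild type falls, so these counts are not independent. GSA1 stood at 77.1 FPKM in amiCYG12 in the light and 65.2 FPKM in the dark, POR1 at 28.3 and 23.3 FPKM. Plastid ribosomal proteins fell at 20 of 32 genes in the wild type and 1 in amiCYG12, with medians of -0.95 and -0.38. CAH1 stood at 11.2 and 9.37 FPKM in amiCYG12, both near the dark wild type value of 18.3 FPKM.

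Several of the wild type rises had no call in amiCYG12. The hydrogenase and maturase genes were called in none of 4 cases in amiCYG12, with HYDA1 at 11.3 and 7.48 FPKM and HYDA2 at 4.73 and 2.85 FPKM. In dark aerated cells the authors' deposited table called all 4 below the wild type level in amiCYG12. Of all tested loci, 18.1% were called there in either direction. That comparison shares the dark aerated wild type libraries with the wild type rises, so it is not independent of them. In standard cells 2 of the 4 were called above the wild type level. CAH7 stood at 5.48 and 5.03 FPKM, CAH8 at 20.1 and 20.2 FPKM and GAP1 at 53.6 and 47.3 FPKM in amiCYG12, none of them called. LCI30, in contrast, rose in amiCYG12 as well, from 115 to 447 FPKM.

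Of the 327 loci called in both strains, 12 rose in the wild type and fell in amiCYG12, and 10 did the reverse. The first set held HCP3, which in amiCYG12 fell from 1.43 to 0.383 FPKM, the selenium-binding protein SBD1, from 5.80 to 16.0 FPKM in the wild type and from 8.14 to 3.69 in amiCYG12, and Cre07.g334150, which fell from 2.81 to 0.724 FPKM in amiCYG12. The second held CDKB1 and CYCA1, which rose in amiCYG12 from 4.74 to 11.6 and from 2.17 to 7.33 FPKM. In the same strain 7 of 8 measured kinase, cyclin and MCM genes of the cell cycle rose in darkness. In the wild type 0 of these 8 rose and 2 fell. This subgroup was set apart after the values were seen. Over the whole cell cycle list of 29 measured genes, 9 rose and 1 fell in amiCYG12, beside 2.96% and 10.2% of all tested loci. The list held 0 rises and 2 falls in the wild type. Flagellar genes fell at 223 of 305 in amiCYG12 and 25 in the wild type, with medians of -1.11 and -0.21. Depth and culture state of the strains are not known, and their part in these counts was not tested.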

How the data were processed

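Stranded poly(A) libraries were sequenced by the authors from 12 RNA samples in 6 groups of 2. CASAVA 1.8.2, Bowtie2 2.0.5, TopHat2 2.0.6, SAMtools 1.2 and Cufflinks 2.1.1 are named in the submitters' processing notes, with no settings given in the sources used here. Per the file headers, the authors deposited 1 table of version 5.5 transcripts with a pooled FPKM per group and, per comparison, a significance call with its p-value, q-value and log2 fold change. The deposited FPKM values were used as given. Depth per library is unknown, so no interval or detection limit was computed, and FPKM is relative: a rise of abundant transcripts lowers the share of all others.

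From these, 1 transcript per locus was kept (the highest mean FPKM over the 6 groups), with at least 1 FPKM in standard or dark aerated wild type cells, and log2 ratios were taken with a pseudocount of 1. The p-values are the authors'; of 9643 loci, 6 had no test. Of 17741 loci, 17738 were matched to the RefSeq gene table by locus tag, for neighbours. Symbols and coordinates are those of the authors' table. Group medians, sums and counts were computed with Python 3.11.15, pandas 2.3.3 and numpy 2.4.6, and the steps were tested on simulated data.

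The loci, gene lists and tests were chosen with earlier results of these data known. Genes named were taken from the 15 largest called rises and falls with a symbol and 5 each without, the 4 largest calls of each list, all members of lists of at most 12 genes, and the 10 most abundant transcripts, not all of which are printed; further members were added after their values were seen, as were the subgroups of a list by role. List members whose description shows another protein were dropped, for example 4 genes with GTR symbols from the tetrapyrrole list.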

Additional observations from a re-analysis of the deposited data

How the results depend on the processing

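No value per library was available, so leaving out each replicate could not be run. No paired analysis was possible because the table holds 1 pooled FPKM per group. Against 421 loci called higher and 702 lower, adjusting the deposited p-values over this comparison alone left 301 and 464, and a q-value under 0.01 left 239 and 318. A minimum of 10 FPKM left 101 and 465, and a minimum change of 2-fold left 195 and 381. No filter on FPKM gave 493 and 731, and every transcript on its own 421 and 703. Rescaling to a common median ratio (a shift of -0.10 on the log2 scale) gave 421 and 702. There the authors' calls were kept and only directions could turn, so these 2 counts do not test the calls. Of 202 genes chosen by the naming rule, 131 of them called, 17 lost their call under adjustment within the comparison. A change of pseudocount cannot turn the direction of a gene, so the value of 0.1 did not test it. Among the 202 genes, summed transcripts turned 3 uncalled genes and rescaling 4. Of 91 list counts, 32 fell by over 1.5 times under the adjustment within the comparison, an alternative added for the lists after the data were seen. Of 79 group medians, the sign turned for 1 with summed transcripts, 3 with rescaling and 3 without a filter, and the cause was not tested. It turned for 0 with the other pseudocount, which keeps the sign of every member and so could hardly turn a median. Pooled values, unknown depth and duplicate libraries limit every call.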

Other observations

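Some single genes changed outside the groups described so far. NSG13, a gene expressed in gametogenesis under nitrogen starvation, rose from 0.437 to 4.37 FPKM in the wild type and from 1.06 to 4.88 FPKM in amiCYG12. AAH1, related to aromatic amino acid hydroxylases, rose from 0.800 to 4.94 FPKM in the wild type and stood at 14.3 FPKM in anoxia. FXL8, a PAS domain protein resembling the bacterial oxygen sensor FixL, rose from 0.0551 to 1.35 FPKM. The cytochrome P450 gene CYP2 rose from 0.210 to 1.47 FPKM in the wild type and from 0.247 to 0.801 FPKM in amiCYG12. The kinase gene STK23 is listed at 0 in standard cells and at 2.16 FPKM in the dark. Cre08.g372200 rose from 4.41 to 10.8 FPKM in aerated darkness and stood at 2105 FPKM in anoxia, while it fell from 4.56 to 0.954 FPKM in aerated darkness in amiCYG12; it has no symbol.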
